A study of Mus musculus with 14 samples.

Results

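Cytosolic ribosomal protein genes were taken as the rows of the count table whose symbol begins with Rpl or Rps, with an optional a or p, and goes on with a number, without the S6 kinase genes (Rps6k) and without symbols marked -ps as pseudogenes. This gave 93 of 46095 gene symbols. They comprised 76 canonical ribosomal protein genes (43 of the large subunit, the 3 stalk genes Rplp0, Rplp1 and Rplp2, and 30 of the small subunit) and 17 further rows. These were 7 paralogs such as Rpl22l1, 3 retrocopies, 6 rows that RefSeq annotates as pseudogenes in spite of their symbols (Rpl32p, Rpl6l, Rps12l1, Rps3a2, Rps3a3 and Rps4l), and Rps19bp1, whose product binds RPS19 and is no ribosomal protein. The pattern missed ribosomal proteins whose symbols are built differently, such as Rpsa and Fau. Of the 93 rows, 89 passed edgeR's low-count filter by group. Rpl10l, Rpl32l, Rpl39l and Rps4l did not.

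RNA was measured in the superior mesenteric artery of 14 C57BL/6 mice aged 8 weeks. The mice were WT (Drp1 +/+) or carried 1 altered Drp1 allele, written Drp1 flox/+ in the labels and called KO here, and were left under normal conditions (3 WT and 4 KO) or subjected to ischemia (3 WT and 4 KO). The labels carry a time of 2 h for ischemia, while the study's text gives another duration. By that text the altered allele is a heterozygous frameshift, so the KO mice kept the other allele, and no Cre driver is named. Drp1 is the dynamin-related GTPase that constricts mitochondria for fission.

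The cytosolic ribosome reads mRNA into protein on its small subunit and joins amino acids on its large subunit, while the stalk recruits the elongation factors. Apart from P1 and P2 of the stalk its proteins are present in equal number, and most of their mRNAs start with a run of pyrimidines, the 5′ terminal oligopyrimidine (TOP) motif, through which LARP1 and mTOR set their translation. The mRNAs are among the most abundant of any cell. They have also been copied back into the genome many times, so the mouse genome holds long lists of processed pseudogenes that are almost identical to them.

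The motif was looked for at the annotated start of each gene, and how exactly these starts are placed was not tested. The windows below reach from 15 bases before the RefSeq start to 15 bases from the start on, and are shown for members described further on. Capitals mark a pyrimidine run of at least 5 bases that begins with C within 5 bases of the annotated start.
Rpl13a: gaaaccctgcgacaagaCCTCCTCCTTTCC
Rps27: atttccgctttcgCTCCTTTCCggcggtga
Rplp2: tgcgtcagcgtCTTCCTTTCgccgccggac
Rps6: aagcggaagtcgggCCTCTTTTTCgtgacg
Rpl12: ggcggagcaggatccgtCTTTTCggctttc
Rpl10: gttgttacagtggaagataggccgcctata
Rps25: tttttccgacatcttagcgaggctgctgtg
The first 5 carry such a run, with the longest in Rpl13a and Rps6, and the last 2 carry none at the annotated start. In GRCm38.p6 the windows lie at chr7:45128731-45128760 (minus strand) for Rpl13a, chr3:90213634-90213663 (minus) for Rps27, chr7:141447636-141447665 (plus) for Rplp2 and chr4:86857353-86857382 (minus) for Rps6. Those of Rpl12 (chr2:32961697-32961726, plus), Rpl10 (chrX:74270801-74270830, plus) and Rps25 (chr9:44407699-44407728, plus) complete the set. RefSeq promoter windows were given for 67 of the 93 rows, with 66 windows for 56 of the canonical genes.

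The run was present in 29 of these 66 windows (43.9%; exact 95% binomial interval 31.7% to 56.7%), against 18.3% of 32851 windows of all genes. That interval counts the 66 windows as independent. They belong to 56 genes, some with several windows, so the interval does not give the uncertainty of a share over genes. With the run required to begin at the annotated start base itself, the shares were 19.7% and 2.51%. Over the promoter windows from 250 bases before to 50 after the start, searched on both strands, the ETS core CCGGAA stood in 48.5% of the canonical members' windows and in 14.9% of all windows. The Sp1 core GGGCGG stood in 60.6% against 35.7%, and the YY1 core GATGGC in 25.8% against 14.1%. TATAA, searched on the given strand in the 40 bases before the start, was rare in both (6.06% and 4.23%). Mitochondrial ribosomal protein genes, whose products work in a separate ribosome inside mitochondria, shared the ETS core (57.3% of 75 windows). The run within 5 bases of the start stood in 17 of their 75 windows (22.7%, with 18.3% of all windows). At the start base itself it stood in 0 of 75 windows, against 13 of 66, with 2.51% of all windows. These shares describe letters in windows and not sites in use.

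The near-identical copies have rows of their own in the table. Coding sequences were cut into words of 50 bases, and a word was called shared where another gene of GENCODE M21 holds it too. Over the 76 canonical genes the median share of such words was 92.0%. For 27 genes every coding word was shared, for 14 genes under 70% were. Pairs of coding stretches of 60 bases are shown because the copy, not the gene, held most of the counts. Each is the stretch without gaps that holds the most differences between gene and copy. Capitals mark the bases in which gene and copy differ.
Rps10: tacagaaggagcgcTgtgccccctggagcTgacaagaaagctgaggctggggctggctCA
Rps10-ps2: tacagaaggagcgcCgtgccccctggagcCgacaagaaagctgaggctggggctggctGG
Rps13: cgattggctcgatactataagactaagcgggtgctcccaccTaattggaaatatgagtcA
Rps13-ps1: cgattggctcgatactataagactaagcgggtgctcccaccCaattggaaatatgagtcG
Rpl10a: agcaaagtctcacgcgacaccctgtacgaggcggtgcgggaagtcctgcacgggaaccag
Rpl10a-ps1: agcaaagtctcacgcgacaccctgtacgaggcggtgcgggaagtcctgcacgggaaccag
The Rps10 stretch has 4 differences, that of Rps13 has 2 and that of Rpl10a has 0, which also holds for all 648 aligned coding bases of Rpl10a. Over all aligned coding bases, Rps10 differs from its copy in 5 of 496 and Rps13 in 2 of 456. In mm10 (GRCm38), Rps10 lies at chr17:27630418-27636669 and its copy at chr16:20822145-20822640. Rps13 lies at chr7:116331505-116334195 and its copy at chr8:87047689-87048226. Rpl10a lies at chr17:28328471-28331033 and its copy at chr1:64993951-64994604.

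Summed over all mice, Rps10 received 3744 counts and Rps10-ps2 68086. Rps13 received 622 counts and Rps13-ps1 18677, and Rpl10a 4094 against 35895 on Rpl10a-ps1. Rps29, which encodes a small zinc-binding protein of the small subunit, had 664 counts against 25049 on Gm14303. By contrast, in each of the 14 genes with under 70% of words shared the copies held at most 2.59% of the family's counts (Rplp1). Rpl4, a large-subunit protein of the exit tunnel, had 20.2% of its words shared and 0.0654% of its family's counts on copies. Together, 571 copy symbols were assigned to the 76 canonical genes, 444 by shared words and 127 by their -ps name alone, and they held 19.2% of the family counts. For 24 genes the copies held more counts than the gene, and 20 of these 24 were among the 27 genes with every word shared, none among the 14 with under 70% shared. How the authors' counting treated reads with several placements is not given in the sources used here. The share of counts on copies hardly varied between mice (18.8% to 19.6%).

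Levels are given as CPM, read counts scaled to a common library size, after TMM scaling, and between genes as CPM per kb of merged exons. The pseudogene row Rpl32p has no length here and is left out of this order. The highest 5 tested rows were Rplp1 (median over 14 mice 965 CPM per kb), Rps15 (836), the stalk base protein gene Rplp0 (426), Rpl4 (410) and Rpl36 (373). The lowest 5 were Rpl3l (0.0505), Rps13 (0.481), the pseudogene row Rps12l1 (0.810), Rps28 (1.18) and Rps29 (2.31). The highest and the lowest canonical gene stood 2006-fold apart per kb, and still 310-fold apart with the counts of the copies added. Among the 14 genes with under 70% of words shared they stood 118-fold apart without copies. Rps23 stayed low with its copies, at 2.49 to 6.54 CPM over the mice. With the counts of the copies added, Rps13 stood at 19.7 CPM per kb, Rps29 at 78.7 and Rplp1 at 993. The SD of log2 level over the 76 genes was 2.47 for the genes alone and 1.67 with the copies, and 41 against 60 of the 76 lay within 4-fold of the median. The median of the 27 genes with every word shared was 8.06 CPM per kb alone and 33.1 with copies, against 189 for the 14 genes with under 70% shared, both alone and with copies. The level of a low row such as Rps13 is therefore given here as the level of that row, not of the protein's mRNA.

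**Figure D1:**
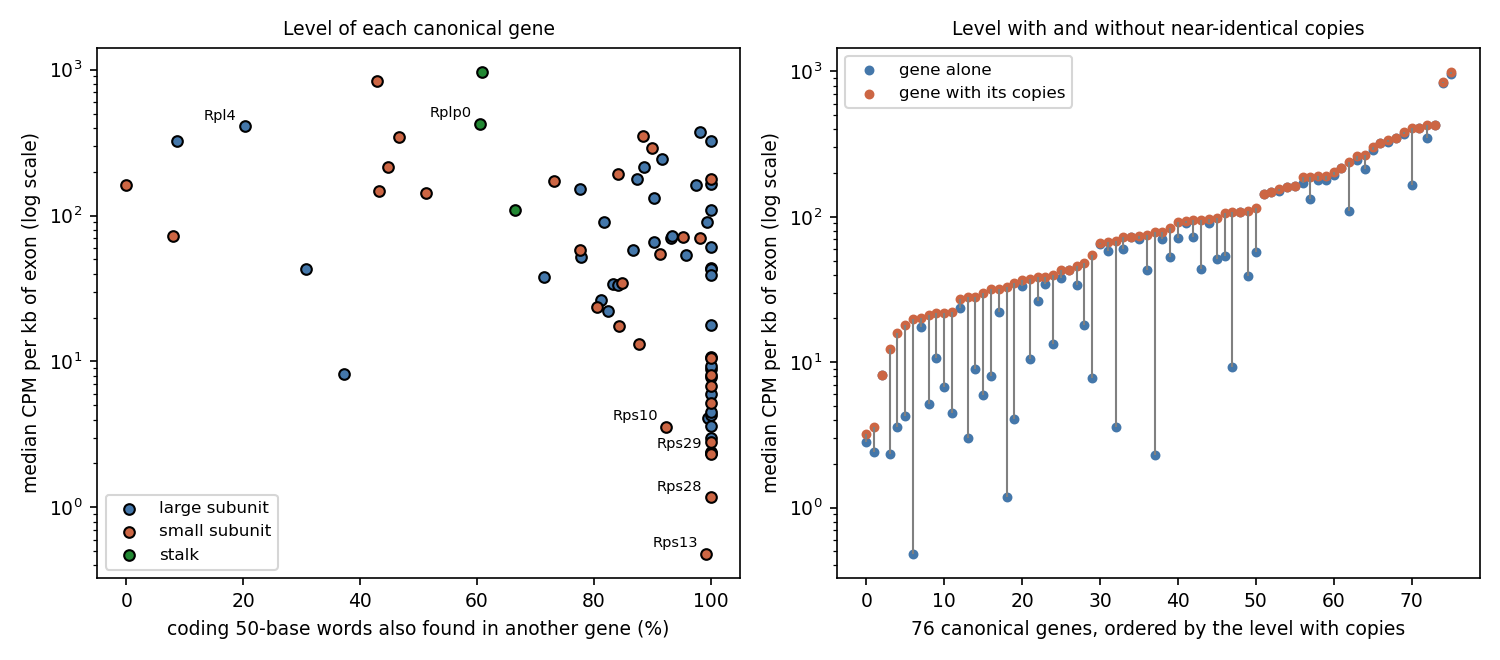
Level of the 76 canonical genes in CPM per kb of merged exons (median over 14 mice, log axis). Left, against the percentage of a gene's coding 50-base words that another gene also holds, with colours for large subunit, small subunit and stalk; the lowest genes, Rps13, Rps28 and Rps29, sit at or close to 100%. Right, each gene alone (blue) and with its copies (red), ordered by the latter; the lines are longest for the low genes and the SD of log2 level is 2.47 alone and 1.67 with copies.

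Total counts ranged from 25612646 to 40255851 per mouse, and 3 counts, taken as the detection floor, corresponded to 0.0745 to 0.117 CPM. These floors cover counting error only. Normal WT replicate 3 was read in lane 1 and the other 13 libraries in lane 8, so that lane has no second library for comparison. The 13 protein genes encoded in mitochondrial DNA took 6.46% to 25.1% of the counts. Smooth muscle markers stood high in every mouse (Acta2 3357 to 18598 CPM, Myh11 2726 to 13667), although Tagln was listed at only 0.675 to 5.78 CPM. Adipocyte markers varied widely (Ucp1 40.2 to 4072 CPM), whereas the neuron genes Th, Dbh and Snap25 and the pancreas genes Prss1, Prss2, Cpa1 and Pnlip were at or near 0. The remaining genes of these lists were detected, the neuron gene Stmn2 at 2.57 to 11.7 CPM and the pancreas gene Cela1 at 0 to 3.50 CPM. Dnm1l, the gene of Drp1, had 63.8 to 90.9 CPM in normal WT, 54.8 to 62.2 in normal KO, 63.1 to 81.0 in ischemic WT and 59.99 to 75.96 in ischemic KO mice, so the genotypes did not overlap under normal conditions and did after ischemia. Counts of the whole gene do not resolve the altered exon.

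The canonical members were steady between mice. The SD of log2 CPM over the 14 mice had a median of 0.22 over the 76 genes, against 0.58 over all 17693 genes tested and 0.32 over the 6686 genes whose mean level lay between the quartiles of the canonical members. For mitochondrial ribosomal protein genes it was 0.52. Set against the median of the tested members in the same mouse, the SD had a median of 0.15. The steadiest rows by that measure included Rps25 (0.06) and Rpl13a (0.08), and the least steady were Rpl3l (1.87), Rps28 (1.16), Rps12l1 (0.78) and Rps29 (0.78). All of the latter 4 are rows of low counts.

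Rps25, a small-subunit protein used by viral internal ribosome entry sites, shows how closely a member with high counts held together. Its levels were 176, 167 and 179 CPM in normal WT and 205, 164, 182 and 150 CPM in normal KO mice. After ischemia they were 239, 203 and 212 CPM in WT and 223, 196, 168 and 210 CPM in KO mice. The 3 ischemic WT mice lay above all normal WT mice, and the KO groups overlapped. Rps28 behaved otherwise, with 1.09, 7.56 and 1.06 CPM in normal WT mice, 2.09, 1.97, 1.13 and 0.917 CPM in normal KO mice, 3.59, 5.03 and 8.89 CPM in ischemic WT mice, and 0.713, 1.72, 5.03 and 8.09 CPM in ischemic KO mice. The 4 normal KO mice lay below the 3 ischemic WT mice, the other groups spread widely, and copies held 94.2% of its family's counts.

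**Figure D2:**
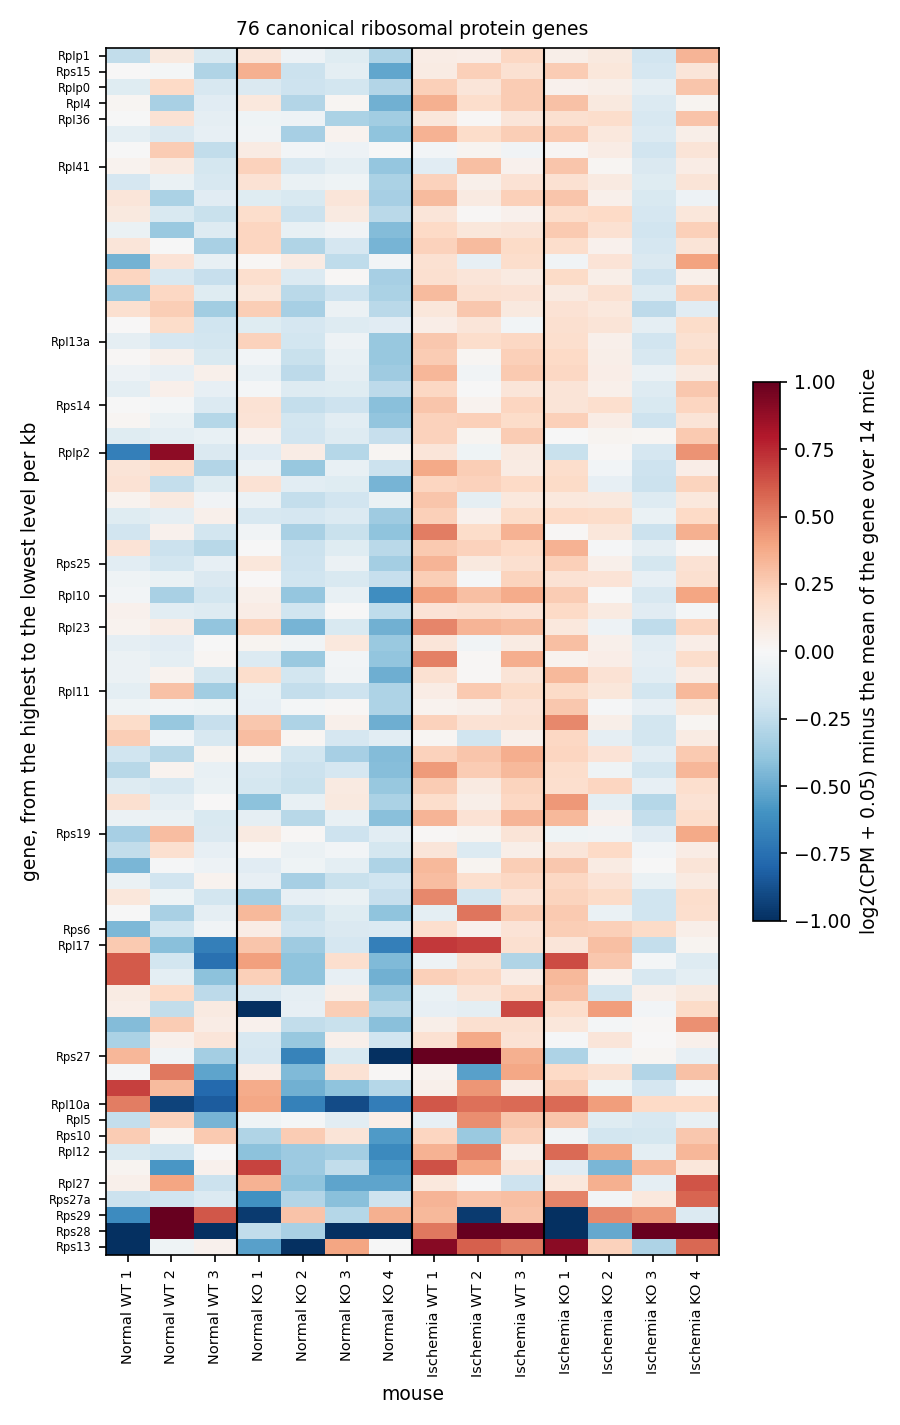
Log2(CPM + 0.05) of the 76 canonical genes in each of the 14 mice, minus the gene's own mean over the mice (red higher, blue lower, limited to 1 in either direction). Rows run from the highest to the lowest level per kb, and some of the genes described in the text are named beside their row. Most rows share a pattern over the mice, redder in the ischemic ones except ischemic KO replicate 3, and the rows at the bottom, Rps28, Rps29 and Rps13 among them, do not follow it closely.

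The sum of all 93 rows made up 1.27%, 1.12% and 1.22% of the counts in the 3 normal WT mice and 1.38%, 1.19%, 1.35% and 0.987% in the 4 normal KO mice. After ischemia it was 1.595%, 1.31% and 1.45% in WT and 1.52%, 1.33%, 1.20% and 1.49% in KO mice. The WT groups did not overlap and the KO groups did. The median log2 CPM of the 46 large-subunit and stalk genes was 6.68 ± 0.05 (SD, n = 3) in normal WT and 6.98 ± 0.04 (n = 3) in ischemic WT mice. It was 6.60 ± 0.22 (n = 4) in normal KO and 6.86 ± 0.16 (n = 4) in ischemic KO mice. The 30 small-subunit genes gave 7.06 ± 0.11 and 7.51 ± 0.11 in WT, and 6.94 ± 0.13 and 7.26 ± 0.22 in KO mice. Both subunits were thus higher after ischemia in the WT groups without overlap, while normal KO replicate 4 and ischemic KO replicate 3 were the lowest of their groups for both.

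**Figure D3:**
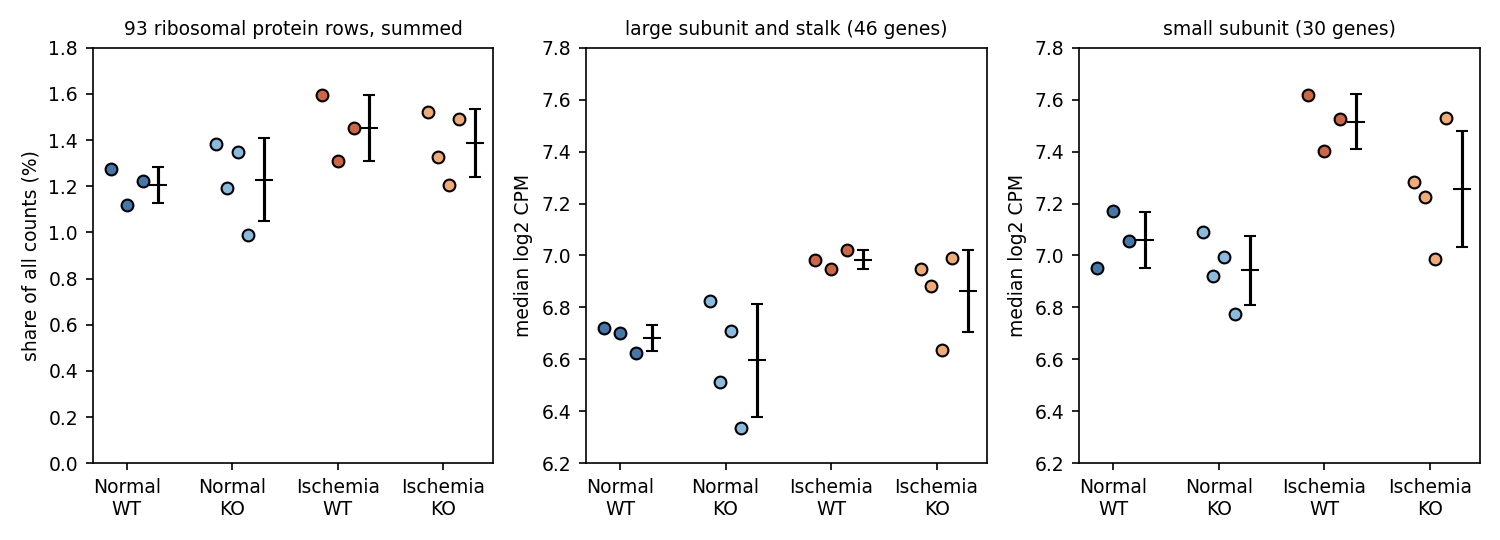
Each point is a mouse, and the bars to the right give mean and SD by group. Left, the share of all counts on the 93 rows (percent); middle and right, the median log2 CPM of the 46 large-subunit and stalk genes and of the 30 small-subunit genes. The ischemic WT mice lie above the normal WT mice in all 3 panels, and the KO groups overlap.

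KO against WT mice under normal conditions asked whether the altered Drp1 allele changed these mRNAs in the resting artery. No member passed the limits (FDR under 0.05 and fold over 1.5 in edgeR's quasi-likelihood test), and 0 of all 17693 genes did (0%). At an unadjusted p under 0.05, 0 members were higher and 0 lower, against 3.21% and 2.04% of all genes, and DESeq2 (0.263% of all genes called) and limma (0%) also called 0 members. The median log2 fold change of the 89 members was -0.06 (all genes -0.02), with 23 above 0 (25.8%, with 47.6% of all genes). The smallest p belonged to Rps27, a zinc-finger protein of the small subunit, with 7.08, 5.47 and 4.42 CPM in WT and 4.99, 3.51, 5.04 and 2.67 CPM in KO mice. These groups overlapped (log2 fold change -0.48 ± 0.29 SE, FDR = 0.981 in edgeR). With copies the value was -0.24 ± 0.22, and with 1 mouse left out it ran from -0.63 to -0.28. Next were Rpl12 (-0.32 ± 0.20, FDR = 0.981), whose product helps to form the stalk base, and Rps28 (-1.08 ± 0.80, FDR = 1).

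Rpl12 was 1 of 3 members whose KO values all lay below the WT values (3.37%, with 1.9% of all genes), beside Rpl7a and Rps3, and no member lay wholly above (0%, with 2.59%). It had 10.1, 9.73 and 11.2 CPM in WT and 8.38, 8.65, 8.81 and 7.18 CPM in KO mice. With the copies of Rpl12 added, its log2 fold change was 0.12 ± 0.17, so the direction of the row did not hold for the family. Rps28 had its sign turned by leaving out normal WT replicate 2, to 0.50.

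KO against WT mice after ischemia asked the same in the injured artery. Again 0 members and 0 genes in all (0%) were called by edgeR, and DESeq2 (0.179% of all genes) and limma (0%) called 0 members. At an unadjusted p under 0.05, 1 member was higher and 1 lower, with 2.88% and 3.59% of all genes. The median log2 fold change was -0.08 (all genes -0.03), with 26 of 89 above 0 (29.2%, with 47.1% of all genes). The lower one was Rps27, with 12.1, 11.7 and 7.18 CPM in ischemic WT and 4.52, 5.498, 5.70 and 5.29 CPM in ischemic KO mice. The groups did not overlap (log2 fold change -0.98 ± 0.29, unadjusted p = 0.0048 and FDR = 0.715 in edgeR). With its copies, which hold 73.2% of the family's counts, the value was -0.49 ± 0.22 (FDR = 0.713). The Rps27 row was 1 of 6 members wholly lower in KO mice (6.74%, with 5.97% of all genes), and 1 member, Rps27l, was wholly higher (1.12%, with 4.74%).

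The higher one was Rpl3l, the striated-muscle paralog of the peptidyl transferase centre protein gene Rpl3. It was at 0.0608, 0 and 0 CPM in ischemic WT mice, under the floor, and at 0, 0.123, 0.965 and 4.59 CPM in ischemic KO mice. The difference (FDR = 0.715 in edgeR) rested on KO replicates 3 and 4, and no fold is given against a group at the floor. Next by p was Rpl23 (-0.37 ± 0.20, FDR = 0.715), with 138, 125 and 122 CPM in WT and 106, 94.9, 82.5 and 114 CPM in KO mice, again without overlap.

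Ischemia against normal conditions in WT mice asked whether ischemia changed these mRNAs. No member was called, with 2 genes in all (0.0113%). At an unadjusted p under 0.05, 11 members were higher (12.4%, with 4.1% of all genes) and 0 were lower (0%, with 5.47%). DESeq2 gave 16 (17.8%, with 5.09% of all genes) and limma 12 (13.5%, with 5.44%) higher at that p, while with only the WT mice in the fit there were 2 (2.27%, with 1.46%) and with total counts without the 13 mitochondrial genes 2 (2.25%, with 2.61%). DESeq2 called 0 members with 0.626% of all genes, and limma 0 with 0.0226%. With the replicate number as a block, 11 members were again higher at that p (with 6.05% of all genes), and 0 genes in all were called in place of 2. The 11 became 4 without ischemic WT replicate 1 (4.49%, with 3.74% of all genes) and 6 without ischemic WT replicate 3 (6.74%, with 2.96%). They became 7 without normal WT replicate 1 or 3, normal KO replicate 2 or 3, or ischemic KO replicate 2 or 4, with 3.29% to 7.05% of all genes. The median log2 fold change of the members was 0.25, with 78 of 89 above 0, while all genes had a median of -0.01 with 49.4% above 0. All 3 ischemic mice lay above all 3 normal mice for 37 members (41.6%, with 6.63% of all genes), and below for 0 (0%, with 4.42%). Members share libraries and move together from mouse to mouse, so these counts are not 89 separate observations. Leaving out 1 of the 6 WT mice at a time gave 39 to 52 members wholly higher, with 9.08% to 16.8% of all genes. Dropping a mouse can only keep or raise such a count, so this range is no test of the dependence on single mice.

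The smallest p was that of Rps3a2, a row RefSeq calls a pseudogene and nearly identical to Rps3a1. It had 40.8, 50.3 and 47.7 CPM in normal and 76.3, 59.5 and 69.5 CPM in ischemic WT mice (log2 fold change 0.56 ± 0.17, FDR = 0.513 in edgeR). Rps27 stood at 7.08, 5.47 and 4.42 CPM against 12.1, 11.7 and 7.18 (0.87 ± 0.31, FDR = 0.513). Rpl10, the late-joining large-subunit protein that completes the 60S particle, had 123, 99.8 and 110 CPM against 167, 154 and 162 (0.54 ± 0.20, FDR = 0.513). In all 3 the ischemic values lay above the normal ones. For Rpl10 the value was nearly the same with copies (0.53 ± 0.20), while for Rps27 it was 0.43 ± 0.23.

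Other members fixed for their role are given next. Rps6, the substrate of the S6 kinases, had 11.9, 14.2 and 15.9 CPM in normal and 18.2, 16.7 and 17.8 CPM in ischemic WT mice (0.33 ± 0.17, FDR = 0.531), without overlap. Rps14 did not overlap either (0.23 ± 0.19, FDR = 0.654). Rpl5 (0.37 ± 0.22) and Rpl11 (0.20 ± 0.19), which with 5S rRNA form the particle that binds MDM2, overlapped, as did Rps19 (0.09 ± 0.19) and Rpl41 (0.10 ± 0.21), the gene of the smallest ribosomal protein. Of the stalk, Rplp0 (0.22 ± 0.19) and Rplp1 (0.21 ± 0.20) were above 0 and Rplp2 was below (-0.12 ± 0.32). Rplp2 had 142, 423 and 206 CPM in normal WT mice, so that normal WT replicate 2 alone stood above every ischemic WT mouse (248, 221 and 242 CPM).

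**Figure D4:**
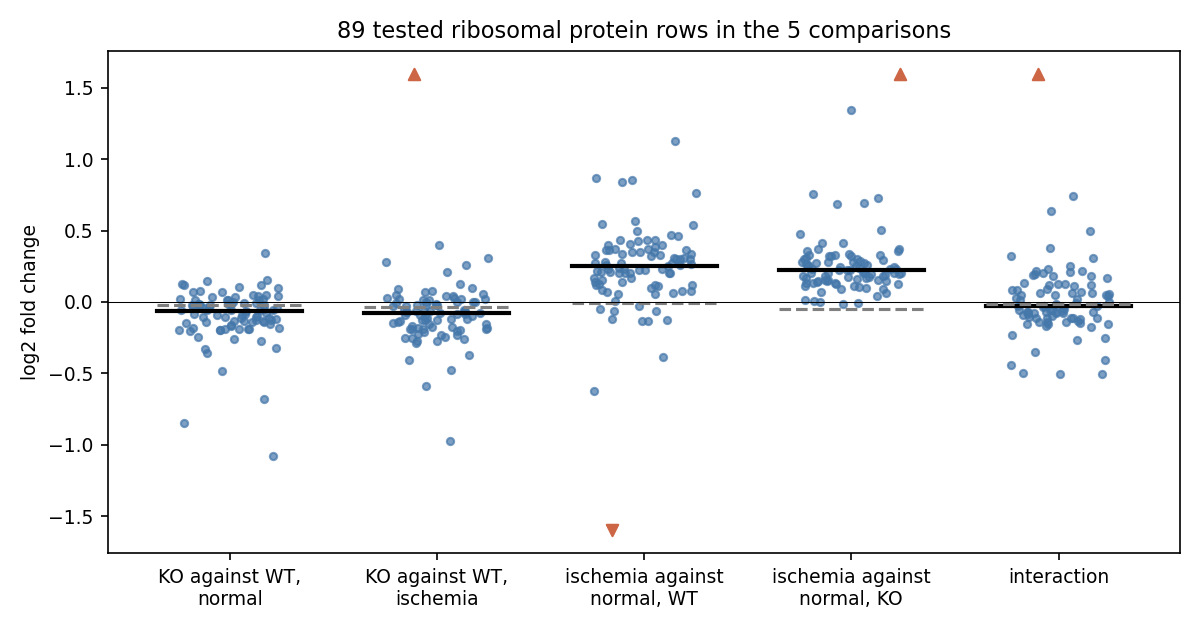
Log2 fold change of the 89 tested rows (points) in the 5 comparisons, with the median of the members (black line) and of all 17693 genes (grey dashes). Triangles mark Rpl3l, which lies outside the axis. The members' medians of 0.25 and 0.22 for ischemia in WT and KO mice stand above 0, and the other 3 lie between -0.08 and -0.03.

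Ischemia against normal conditions in KO mice gave 0 members called by edgeR, with 52 genes in all (0.294%). At an unadjusted p under 0.05, 8 members were higher (8.99%, with 5.75% of all genes) and 0 lower (0%, with 7.47%). The 8 became 3 without normal KO replicate 2 or 4 or ischemic KO replicate 4 (with 4.12% to 5.49% of all genes) and 5 without ischemic KO replicate 1 (with 4.61%), shares of 3.37% to 5.62% of the members that lie near the background. They became 21 without normal KO replicate 1 (with 6.2%), 19 and 18 without normal WT replicates 1 and 2 (with 7.28% and 8.27%), 16 without ischemic KO replicate 3 (with 5.26%) and 14 without ischemic WT replicate 2 (with 6.43%). Total counts without the 13 mitochondrial genes gave 3 (with 3.35%), only the KO mice in the fit 13 (with 9.38%), a minimum of 10 counts in every mouse 16 (with 7.77%), DESeq2 17 (with 6.85%), and both no filter and upper-quartile scaling 5 (with 4.68% and 5.09%). The 52 genes in all ranged from 5 to 174 with 1 mouse left out. The median log2 fold change was 0.22, with 86 of 89 above 0, while all genes had -0.05 with 45.9% above 0. The exceptions were Rpl38, Rpl6l and Rps27l, with log2 fold changes of -0.01, -0.01 and -0.00. For 8 members all KO mice after ischemia lay above all normal KO mice (8.99%, with 5.49% of all genes), namely Rpl12, Rpl19, Rpl7, Rpl9, Rplp0, Rps15a, Rps27a and Rps3, and for 0 all lay below (0%, with 5.6%). Dropping a mouse can only keep or raise this count. Without ischemic KO replicate 3, the lowest of its group, it was 29 (32.6%, with 8.12% of all genes). It was 22 without normal KO replicate 1 (24.7%, with 8.85%) and 14 without normal KO replicate 3 (15.7%, with 7.39%). Without any other KO mouse it was 8 or 9 (8.99% to 10.1%, with 6.27% to 8.12% of all genes).

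The smallest p was that of Rpl12. It had 8.38, 8.65, 8.81 and 7.18 CPM in normal and 16.5, 14.7, 10.4 and 14.1 CPM in ischemic KO mice (log2 fold change 0.75 ± 0.18, FDR = 0.107 in edgeR). Rps27a, which encodes RPS27A fused to ubiquitin, had 3.22, 3.99, 3.66 and 4.23 CPM against 6.92, 4.82, 5.29 and 7.36 (0.69 ± 0.22, FDR = 0.199). Neither overlapped. These were the 2 members that DESeq2 called, with FDR = 0.00456 for Rpl12 and 0.0168 for Rps27a, which is 2.25% of the members where DESeq2 called 3.64% of all genes. By limma 0 were called, with 0.401% of all genes. Most reads of both families lay on copies (89.03% and 79.4%), and with these added the log2 fold changes were 0.27 ± 0.15 for Rpl12 and -0.02 ± 0.16 for Rps27a. Next by p was Rps3a2 (0.41 ± 0.15, FDR = 0.268), with 49.6, 38.1, 47.2 and 37.3 CPM against 62.2, 57.6, 48.2 and 61.0, where the groups overlapped.

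**Figure D5:**
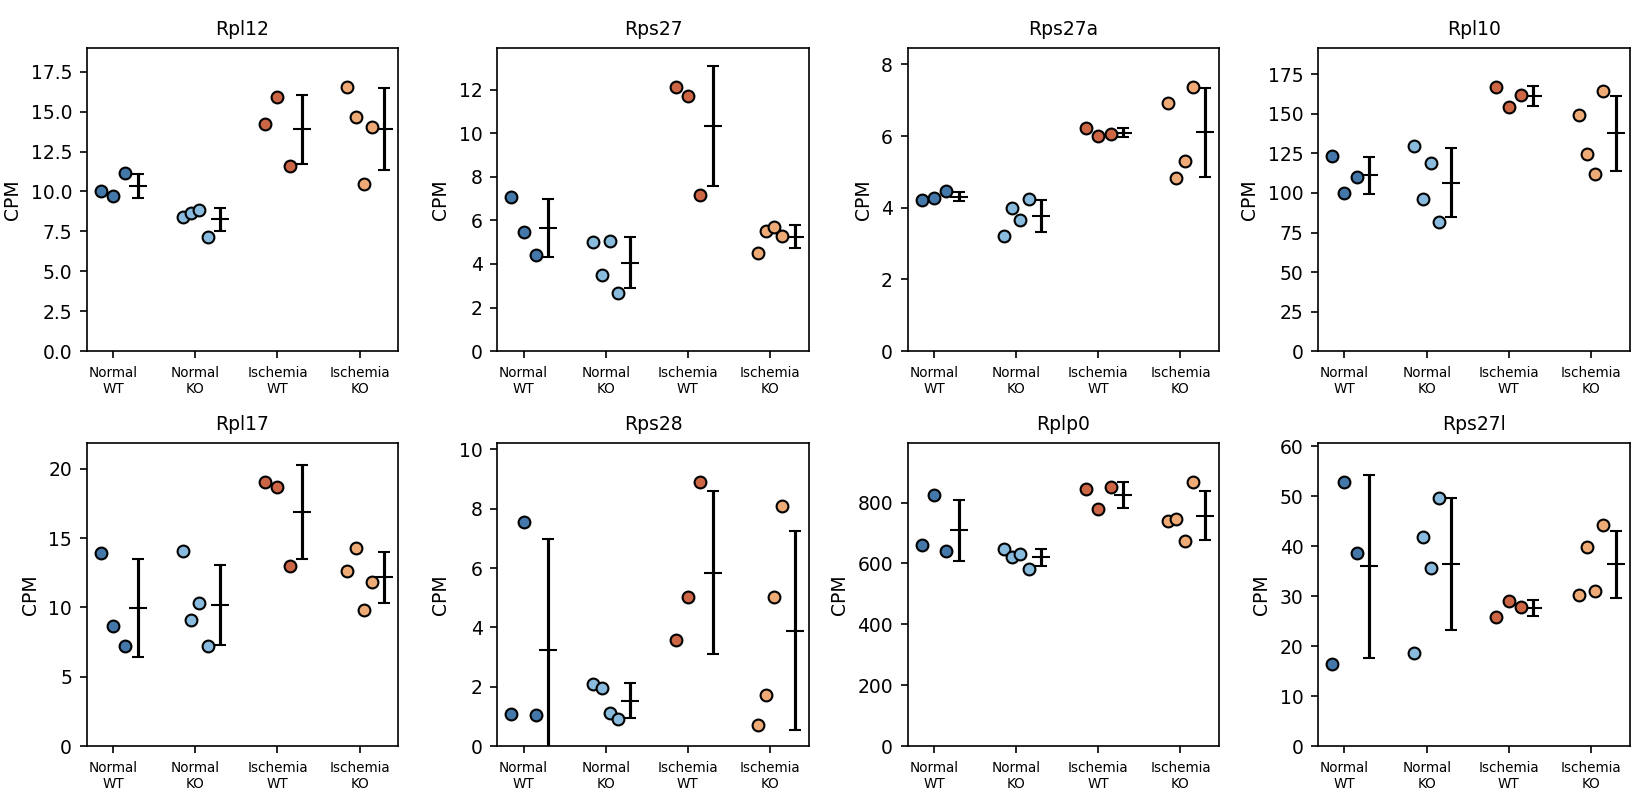
CPM of 8 members in each mouse, with mean and SD by group to the right of the points. Rpl12 and Rps27a separate normal from ischemic KO mice, Rps27 separates ischemic WT from ischemic KO mice, Rpl10 separates the WT groups, and Rps28 and Rps27l spread widely within groups.

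The 14 canonical members with under 70% of their coding words in other genes, which include none whose copies held more counts than the gene, had median log2 fold changes of 0.21 in WT mice (12 of 14 above 0) and 0.19 in KO mice (14 of 14). With the copies summed into each canonical gene, the medians were 0.25 (72 of 76 above 0) and 0.22 (75 of 76), and 0 genes were called in either. The members' median thus stood above that of all genes by 0.22 and 0.24 for the 14 genes, by 0.26 and 0.26 for the genes with copies, and by 0.26 and 0.27 for the 89 rows, in WT and KO mice respectively. These choices were made after the data were seen.

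Markers of other cell types were summed in the same groups. The 7 smooth muscle markers summed to 7134 to 24894 CPM in normal WT and 19766 to 36076 CPM in ischemic WT mice, and to 10345 to 24382 and 18630 to 30028 CPM in the KO groups. The 6 brown adipocyte markers summed to 188 to 7049 CPM in normal WT and 284 to 1549 CPM in ischemic WT mice, and to 1200 to 6436 and 1037 to 5042 CPM in KO mice. The 5 erythroid markers summed to 107 to 251 CPM in normal WT against 4.62 to 109 CPM in ischemic WT mice, and to 346 to 592 against 75.9 to 186 CPM in KO mice. The 8 lymphocyte markers summed to 6.32 to 11.7 CPM in normal WT against 2.40 to 3.81 CPM in ischemic WT mice, and the mesothelium markers to 1.71 to 12.6 against 17.4 to 26.6 CPM, both without overlap. Genes of mitochondrial DNA took 15.8% to 19.9% of the counts in normal KO against 11.1% to 13.8% in ischemic KO mice, also without overlap, and the erythroid markers of these mice did not overlap either. All 6 brown adipocyte and all 5 erythroid markers were detected, and no smooth muscle, brown adipocyte or erythroid marker was at 0 in every mouse. The part of such differences in the ribosomal protein values was not tested. In bulk tissue, fewer cells of a type and less RNA per cell cannot be told apart. The higher values after ischemia are relative to all other genes: with each library scaled to its own summed member counts the medians were -0.00 in WT and 0.01 in KO mice, as that scaling must give, and the median of all genes moved to -0.25 and -0.26. With total counts without the 13 mitochondrial genes in place of TMM, the median of all genes in KO mice moved from -0.05 to -0.17 and that of the members to 0.09, a distance of 0.26 against 0.27 under TMM.

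The interaction asked whether ischemia acted differently in the 2 genotypes. No member and 0 genes in all (0%) were called by edgeR, and DESeq2 (0.0587% of all genes) and limma (0%) called 0 members. At an unadjusted p under 0.05, 1 member was higher (1.12%, with 1.35% of all genes) and 0 lower (0%, with 2.97%). The median log2 difference was -0.03, with 40 of 89 above 0 (44.9%, with 48.9% of all genes). The smallest p were those of Rpl3l (FDR = 0.946 in edgeR), with 0, 0.497 and 0.0755 CPM in normal WT and 0.113, 0, 0.0904 and 0.215 CPM in normal KO mice beside the ischemic values above, Rpl27 (0.64 ± 0.45, FDR = 0.946) and Rpl17 (-0.51 ± 0.39, FDR = 0.946). With copies, which hold 91.2% of the Rpl17 family's counts, the Rpl17 value was -0.01 ± 0.25, and with 1 mouse left out it ran from -0.80 to -0.27. Rpl17 had 13.96, 8.66 and 7.21 CPM in normal WT and 19.0, 18.7 and 13.01 CPM in ischemic WT mice, against 14.05, 9.07, 10.3 and 7.21 CPM in normal KO and 12.7, 14.3, 9.82 and 11.9 CPM in ischemic KO mice. Its groups overlapped in both genotypes.

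Paralogs can replace their parent proteins in some tissues, and their levels were set against the parents per kb in the same mouse. Rpl22l1, the paralog whose mRNA RPL22 can hold back, stood at 21.1% of Rpl22 (13.7% to 25.6% over the 14 mice), with 70.2% identity of the coding sequences. Rpl7l1 stood at 10.6% of Rpl7 (6.52% to 15.6%). Rps27l, a p53 target, stood at 881% of Rps27 alone but at 206% of Rps27 with its copies. Its own levels were 16.4, 52.8 and 38.7 CPM in normal WT, 18.7, 41.8, 35.6 and 49.6 CPM in normal KO, 25.9, 29.1 and 27.8 CPM in ischemic WT, and 30.3, 39.8, 31.1 and 44.2 CPM in ischemic KO mice, so ischemic KO mice lay above ischemic WT mice and the other groups overlapped. Rpl36al, the autosomal paralog of X-linked Rpl36a, stood at 1040% of that gene alone and at 205% of it with its copies.

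Some paralogs were barely detected. Rpl3l had a median of 0.0945% of Rpl3. The testis paralog Rpl39l was at 0 CPM in 10 of 14 mice and reached 0.429 CPM in normal KO replicate 4, and Rpl10l had 0 counts in every mouse, where 3 counts would have been needed. Rps4l, a pseudogene row, reached 0.239% of Rps4x at most. Rps19bp1 had 4.72 to 13.6 CPM.

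Of the other listed genes of the pathway, 1 passed the limits, in 1 comparison. The ribosomal proteins missed by the symbol rule and Rack1, the scaffold on the small subunit, gave 0 of 4 called in all 5 comparisons, with Fau at 0.60 ± 0.22 for ischemia in WT mice (FDR = 0.513 in edgeR). The 14 other TOP mRNAs, which encode elongation and initiation factors and the like, had medians of 0.21 and 0.17 for ischemia in WT and KO mice, with 13 of 14 above 0 in each and 0 called. For KO against WT they had medians of -0.21 and -0.30 (all genes -0.02 and -0.03), with 13 of 14 below 0 in both conditions and 0 called. The 14 genes share libraries, so these are not 14 separate observations. Eif4b, an initiation factor that aids the helicase, was at -0.44 ± 0.18 under normal conditions (FDR = 0.926) and at -0.45 ± 0.18 after ischemia (FDR = 0.715). Eif4b is named because it was the lowest of the 14 in both comparisons, which use separate mice. The 24 ribosome biogenesis genes had medians of 0.01 and 0.13 for ischemia in WT and KO mice with 0 called, so the members' median was the higher in both.

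Of 13 regulators, 1 was called in 1 comparison. Cdkn1a, the p53 target p21, was higher after ischemia in KO mice (log2 fold change 3.05 ± 0.49, FDR = 0.0215 in edgeR), where 0.294% of all genes were called. Myc, which drives ribosome production, was at 1.40 ± 0.53 there (FDR = 0.280). For ischemia in WT mice the highest regulator was at 1.27 (smallest FDR = 0.528 in edgeR). For KO against WT under normal conditions the lowest was at -2.12 (smallest FDR = 0.866). For the interaction the highest regulator was at 2.06, the smallest FDR was 0.946 and 0 were called. The call of Cdkn1a in KO mice is therefore no evidence of a rise particular to that genotype. The genes called in that comparison ranged from 5 to 174 with 1 mouse left out. The 77 mitochondrial ribosomal protein genes had a median of -0.68 for ischemia in WT mice (1 of 77 above 0) where the cytosolic members had 0.25, and of 0.02 in KO mice (45 of 77 above 0). After ischemia their median for KO against WT was 0.60 (75 of 77 above 0), where the cytosolic members had -0.08. None of the 77 was called in any of the 5 comparisons. The part of the brown adipocyte marker levels given above in these values was not tested.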

How the data were processed

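RNA of the superior mesenteric artery of 14 mice was sequenced. The authors deposited raw read counts per gene symbol for each mouse in 1 table, without normalization and without pooling. The submitters' processing notes name HISAT2 2.0.4 and mm10. The counting program, the annotation, the use of strand and the treatment of reads with several placements are not given in the sources used here. Columns were matched to mice by title, and 0 columns were left unused.

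The tests were run with edgeR 4.0.16 under R 4.3.3. All 14 mice entered 1 fit of the 4 groups after filterByExpr by group, which kept 17693 genes, with TMM scaling, quasi-likelihood tests, Benjamini-Hochberg adjustment over all genes tested, and limits of FDR under 0.05 and fold change over 1.5. Fold changes are log2, with SE taken as the fold change divided by the root of F. Log2 CPM used a prior count of 2. Adjusted p-values are from edgeR unless DESeq2 1.42.0 or limma 3.58.1 is named. Replicates are separate mice, and all pairs within groups differed by more than counting noise. The biological coefficient of variation was 0.522. The reported fit has no replicate block. Deviations of same-numbered mice from their group means correlated from -0.146 to 0.316. For ischemia in WT mice all 3 pairs were over 0.1 (0.120 to 0.192). There the numbers were taken to pair the mice, and the blocked value is printed beside the result. The block was fitted over all 14 mice, KO mice included, and no label says what a number marks. In each of the other comparisons a pair was at or under 0.1, and over all groups 8 of 14 mice correlated best with a mouse of their own number.

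Lengths, coding words of 50 bases (75 as an alternative added with the data in view) and copies came from GENCODE M21, and start windows and biotypes from RefSeq, both on GRCm38. A copy is a row annotated as a pseudogene or retrocopy, marked -ps or named Gm, that shares at least 10% of a canonical gene's coding words at another locus, or, with no such match, has its name with -ps.

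The members and lists were chosen with earlier results of these data known. Named are, by rule, the 3 members with the smallest p per comparison, the 5 highest and 5 lowest per kb, the 4 least and 3 most steady, members fixed for their role, and both of each paralog pair. Members named for their copies, Rpl7a, Rps3 and the other rows of small counts given by name, were picked with their values in view. The edgeR test was tested on simulated data with large set changes and a smaller spread between mice than in the data. That run therefore does not bear on changes of the size seen in the members. Alternatives were other scalings, filters, tests, samples and member definitions. Some results are not reported here.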

Additional observations from a re-analysis of the deposited data

Results flagged for a closer look

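Groups of 4 mice were screened for a value far from the other 3 by Dixon's gap ratio, which chance passes in about 1 of 20 groups. Of 88 sets of 4 values, from the named members and the members' share and median levels in the KO groups, 5 passed the critical value of 0.829. Rpl27 stood at 4.65 CPM in normal KO replicate 1 with the next mouse at 2.75 (gap ratio 0.886). Rpl39l, the paralog with few counts, stood at 0.429 CPM in normal KO replicate 4 with the next at 0.0561 (0.869), and after ischemia it was above 0 in KO replicate 3 alone (0.0292 CPM, gap ratio 1), which is below the floor. Rpl5 stood at 17.9 CPM in ischemic KO replicate 1 with the next at 13.99 (0.836). Rps19, one of the genes mutated in Diamond-Blackfan anemia, stood at 145 CPM in ischemic KO replicate 4 with the next at 110 (0.860).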

How the results depend on the processing

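The count of members called was 0 under every alternative for 4 of the 5 comparisons, and for ischemia in KO mice under all but DESeq2, which called 2 (Rpl12 and Rps27a); the cause was not tested. The replicate block gave 0 members called in all 5 comparisons and median log2 fold changes of -0.07, -0.08, 0.25, 0.22 and -0.05, with 48 genes in all called for ischemia in KO mice against 52 without it, and 0 for ischemia in WT mice against 2. It changed the call of no member. Leaving out 1 mouse at a time gave 0 members called throughout, and medians from -0.13 to -0.03 for KO against WT under normal conditions, from -0.12 to -0.02 after ischemia, from 0.23 to 0.26 for ischemia in WT mice, from 0.18 to 0.30 in KO mice and from -0.06 to 0.08 for the interaction. Without normal WT replicate 3, the library of lane 1, ischemia in WT mice gave 0.25. The medians moved by more than 0.127, the SD between mice of a group, for ischemia in WT mice with scaling to the summed members (-0.0014) and in KO mice with that scaling (0.0124) and with total counts without the mitochondrial genes (0.0903). Over all genes, ischemia in KO mice gave 267 calls with only the compared groups in the fit, 609 with DESeq2, 71 with limma, 73 without a filter, 102 with scaling to the members and 39 with total counts without the mitochondrial genes, and ischemia in WT mice gave 108 with DESeq2 and 4 with limma. DESeq2 called 48 genes for KO against WT under normal conditions, 29 after ischemia and 11 for the interaction, where edgeR called 0. With copies summed in, Rpl12 under normal conditions (0.12) and Rps27a for ischemia in KO mice (-0.0167) turned their sign, and so did Rps28 under normal conditions without normal WT replicate 2 (range over mice left out -1.499 to 0.50). The SD of log2 level was 2.47 with merged exons, 2.49 with the longest transcript and 1.67 with copies. The share of windows with a pyrimidine run fell from 43.9% to 19.7% when it had to begin at the start base. The median share of coding words found elsewhere was 92.0% with words of 50 bases and 84.8% with 75.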
